A study of Mus musculus with 18 samples.

Results

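Gbp2b, Irgm1, H2-D1, H2-K1, B2m, Tap1, Psmb8, Irf1 and Ifitm3 are mouse genes of the interferon response and of class I antigen presentation. They were chosen by symbol, with earlier results of these data known. Their shares set beside those of all probe sets therefore describe them and do not test the choice. Every probe set that the platform annotation gives to 1 of these symbols alone was taken. That gave 9 of 18193 named genes and 25 of 34945 probe sets with a single symbol. A further 3 probe sets that carry a member's symbol together with others were left out. H2-D1 was read by 9 probe sets, H2-K1 and Tap1 by 4 each, and each of the other genes by fewer.

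The study compared induced pluripotent stem (iPS) lines with embryonic stem (ES) lines on Affymetrix arrays, with 3 arrays for each of 6 lines. The iPS lines IP14D-1, IP20D-3 and IP36D-3 carry the strain label B6 x D2 F1, and the iPS line IP14D-101 carries B6 x 129S2 F1. The ES line R1 is labelled 129X1/SvJ x 129S1 F1, and the ES line ESC2 is labelled B6 x D2 F1. All lines grew with leukaemia inhibitory factor on embryonic fibroblasts treated with mitomycin C, in fetal serum or in a serum replacement. Which of these media each line had is not given. Each group is 1 line, so a difference between lines is a statement about those cultures. The series' design text calls the 3 arrays of a line biological replicates, but nothing says they came from separate cultures, and p-values measure only the spread between these arrays.

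Interferons bind surface receptors that act through JAK kinases and STAT factors. Type I and III interferons drive genes through the interferon-stimulated response element, and interferon gamma drives them through the gamma-activated site, in part by way of the transcription factor Irf1. Among the induced genes are guanylate-binding proteins and immunity-related GTPases, which act against intracellular pathogens, and the class I pathway. In that pathway the immunoproteasome cuts proteins into peptides, the TAP transporter carries them into the endoplasmic reticulum, and a heavy chain paired with beta-2-microglobulin shows them at the cell surface. Pluripotent cells are known for low class I display and a weak interferon response.

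Levels are given as log2 of the deposited intensity, and the median probe set of an array lay between 4.86 and 4.93. All 8 pluripotency markers (Pou5f1, Nanog, Sox2 and others) were above the array median in every line. Their mean log2 was not the same in all lines, running from 11.14 in ESC2 to 11.968 in IP14D-101. The RNA also held signal of fibroblast genes: over 20 fibroblast markers, summed intensity ran from 5484.2 to 5808.8 in IP14D-1, from 3099.4 to 3304.7 in IP20D-3, from 2311.2 to 2474.2 in IP36D-3, from 3961.0 to 4322.6 in IP14D-101, from 3690.0 to 3999.3 in R1 and from 3491.5 to 4073.2 in ESC2. The sums weigh the brightest markers most, such as Fn1 at 10.23 to 11.225 log2. Mean log2 over the list was 5.994 in IP14D-1, 4.65 in IP20D-3, 4.866 in IP36D-3, 5.147 in IP14D-101, 5.365 in R1 and 5.725 in ESC2. Of the 20 markers, between 6 in IP14D-1 and 17 in IP20D-3 had a line mean under the array median. Col6a1, Postn, Lum, Cdh11 and Prrx1 were under the array median in all 6 lines. Of 9 leukocyte markers 8 were measured, with a summed intensity of 154.1 to 256.7 over the lines, and the pan-leukocyte marker Ptprc stayed at 2.53 to 2.81 log2. The ratio of the 3' to the 5' actin control probe sets had line means of 1.13 to 1.28 in the iPS lines and R1, against 1.53 ± 0.04 in ESC2 (SD, n = 3). In bulk RNA, fewer cells of a type and less RNA per cell cannot be told apart.

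The stretches before the start sites of Gbp2b, Irgm1, H2-D1, B2m and Irf1 are shown. These genes differ in how their levels were ordered across the lines and in which of 3 searched letter patterns match upstream. The sequences are RefSeq's for GRCm38.p6, read 5' to 3' on the strand of the gene and ending at the base before the start of the annotated gene, from which positions are counted. Capitals mark matches to 3 patterns searched on both strands. These are GAAA, any 2 bases and GAAA again for the interferon-stimulated response element, TTCNNNGAA for the gamma-activated site, which reads the same on both strands, and TGACGN for the X2-like box of class I promoters. Gbp2b lies at chr3:142594597-142594815 on the plus strand, Irgm1 at chr11:48871421-48871670 on the minus strand, H2-D1 at chr17:35262844-35263093 on the plus strand, B2m at chr2:122147437-122147686 on the plus strand and Irf1 at chr11:53769764-53770013 on the plus strand.
Gbp2b: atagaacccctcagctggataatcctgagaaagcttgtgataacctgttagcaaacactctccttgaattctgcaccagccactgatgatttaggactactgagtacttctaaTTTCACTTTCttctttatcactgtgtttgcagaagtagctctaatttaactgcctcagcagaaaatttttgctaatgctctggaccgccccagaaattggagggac
Irgm1: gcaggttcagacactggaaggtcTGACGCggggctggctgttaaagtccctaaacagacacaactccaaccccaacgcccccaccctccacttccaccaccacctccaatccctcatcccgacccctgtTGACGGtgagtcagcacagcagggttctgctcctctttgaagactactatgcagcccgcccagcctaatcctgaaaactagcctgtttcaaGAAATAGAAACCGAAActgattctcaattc
H2-D1: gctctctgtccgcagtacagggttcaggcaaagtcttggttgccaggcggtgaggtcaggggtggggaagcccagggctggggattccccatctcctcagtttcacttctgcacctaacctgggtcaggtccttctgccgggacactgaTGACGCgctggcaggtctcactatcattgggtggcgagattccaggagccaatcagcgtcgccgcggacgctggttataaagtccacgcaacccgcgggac
B2m: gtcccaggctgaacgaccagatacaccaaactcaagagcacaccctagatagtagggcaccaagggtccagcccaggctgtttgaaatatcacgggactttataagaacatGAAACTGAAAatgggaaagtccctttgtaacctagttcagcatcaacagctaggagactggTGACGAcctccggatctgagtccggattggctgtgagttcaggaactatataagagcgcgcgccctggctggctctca
Irf1: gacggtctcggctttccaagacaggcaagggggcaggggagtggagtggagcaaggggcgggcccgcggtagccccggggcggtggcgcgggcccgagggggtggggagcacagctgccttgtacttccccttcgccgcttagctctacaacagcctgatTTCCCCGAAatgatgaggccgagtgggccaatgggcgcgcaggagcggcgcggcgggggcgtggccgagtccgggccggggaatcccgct
The Gbp2b stretch holds 1 response element match on the opposite strand at positions -106 to -97. The Irgm1 stretch holds a pair that overlap each other at -30 to -15, and B2m holds 1 at -139 to -130. Irf1 holds a gamma-activated site match at -90 to -82, and Psmb8, not printed, holds 1 at -97 to -89. The X2-like pattern lies upstream in Irgm1, H2-D1, B2m and Tap1, and inside the annotated gene in H2-K1. It lies at -101 to -96 in H2-D1 and at -78 to -73 in B2m. In RefSeq's windows from 250 bases before to 50 after a transcript start, which cover all 9 members, the response element pattern was found in 4 members, the gamma-activated site in 3 and the X2-like pattern in 5. The Ifitm3 matches lie after its start. Of 32851 mouse windows of that length, 3.44% held the response element pattern, 8.3% the gamma-activated site and 20.8% the X2-like pattern. Each match is only a match of letters. A variant of an element can differ from the pattern, so the lack of a match does not show that an element is absent.

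Among the 6 lines, 12 of the 25 member probe sets (48%) varied, against 24.2% of all 45037 probe sets tested, where varying means an adjusted p under 0.05 in limma's F test and a range of line means of at least 1 log2. The 12 belong to Gbp2b, Irgm1, H2-D1, H2-K1, Tap1, Psmb8 and Irf1. The median range of line means was 0.87 log2 over the member probe sets and 0.58 over all probe sets. R1 had the highest line mean for 18 of the 25 member probe sets, against 23.8% of all probe sets, and IP20D-3 had the lowest for 12, against 24.5%. With R1 left out of the comparison, 4 member probe sets varied, those of Gbp2b, Irgm1 and Irf1 and 1 of H2-D1, with 20.6% of all probe sets varying.

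**Figure D1:**
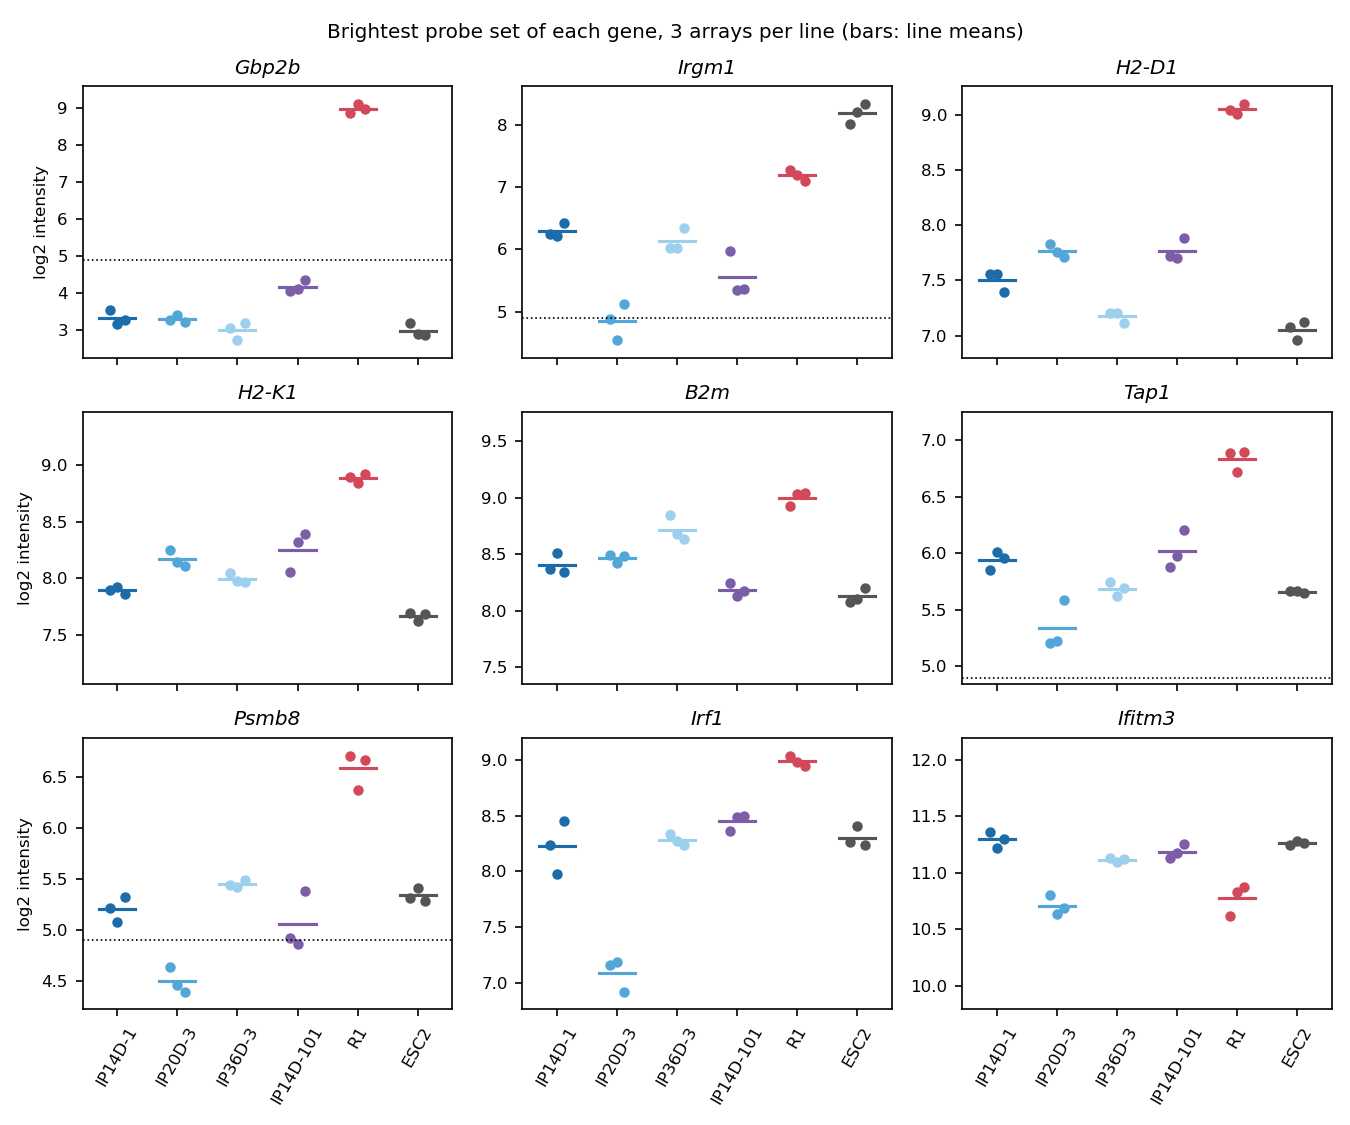
Log2 intensity of the main probe set of each of the 9 genes in 6 lines, iPS lines left of the ES lines. Points are the 3 arrays of a line and bars are line means; Gbp2b stands at 8.98 log2 in R1 and at 2.99 to 4.18 in the other lines, Irgm1 is highest in ESC2, Irf1 is lowest in IP20D-3, and Ifitm3 spans 0.59 log2.

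Gbp2b encodes an interferon-induced guanylate-binding protein, and its induction is known to differ between inbred mouse strains. Its single probe set read 3.55, 3.17 and 3.28 log2 on the IP14D-1 arrays, 3.29, 3.42 and 3.22 on IP20D-3, 3.07, 2.74 and 3.19 on IP36D-3 and 4.05, 4.13 and 4.36 on IP14D-101. In the ES lines it read 8.86, 9.11 and 8.97 log2 on the R1 arrays and 3.19, 2.91 and 2.89 on ESC2. All R1 arrays were far above all others, IP14D-101 came next, and the B6 x D2 lines read near background, under the array median. Among these, the IP20D-3 arrays lay slightly above those of IP36D-3 and ESC2, and the IP14D-1 arrays overlapped the rest. The log2 difference of R1 from ESC2 was 5.99 ± 0.13 (SE; limma adjusted p = 1.47e-15). Since all lines but R1 read this gene near background, its log2 differences are differences of these readings, and no fold of RNA is given. IP14D-101 was above the next line, IP14D-1, by a log2 difference of 0.85 (limma adjusted p = 6.38e-05). The B6 x D2 neighbours in that order, from IP14D-1 through IP20D-3 and IP36D-3 to ESC2, did not pass the test, with steps of 0.02, 0.31 and 0.01 log2.

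Irgm1, an immunity-related GTPase that limits intracellular pathogens and takes part in autophagy, had another order. It read 6.25, 6.21 and 6.42 log2 on the IP14D-1 arrays, 4.89, 4.55 and 5.13 on IP20D-3, 6.03, 6.03 and 6.35 on IP36D-3 and 5.97, 5.35 and 5.37 on IP14D-101. The ES lines read 7.28, 7.19 and 7.10 log2 in R1 and 8.01, 8.21 and 8.34 in ESC2. Both ES lines were above every iPS array, and ESC2 was the highest. IP14D-1 and IP36D-3 did not pass the test of their log2 difference (0.16, limma adjusted p = 0.499). The other steps in the order passed it, down to IP20D-3, which lay 0.71 log2 under IP14D-101.

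The class I heavy chain genes H2-D1 and H2-K1 lie in the major histocompatibility complex on chromosome 17, with Tap1 and Psmb8. The brightest H2-D1 probe set, 1425545_x_at, read 7.56, 7.56 and 7.39 log2 on the IP14D-1 arrays, 7.83, 7.76 and 7.71 on IP20D-3, 7.21, 7.20 and 7.11 on IP36D-3 and 7.72, 7.70 and 7.89 on IP14D-101. It read 9.05, 9.01 and 9.10 log2 in R1 and 7.07, 6.96 and 7.12 in ESC2. R1 was above all other lines, IP14D-101 and IP20D-3 were level to within 0.002 log2, and IP36D-3 and ESC2, the lowest lines, did not pass the test between them. The brightest H2-K1 probe set, 1425336_x_at, read 7.89, 7.93 and 7.86 log2 on the IP14D-1 arrays, 8.25, 8.15 and 8.11 on IP20D-3, 8.05, 7.98 and 7.97 on IP36D-3 and 8.05, 8.32 and 8.39 on IP14D-101. In R1 it read 8.89, 8.84 and 8.92 log2 and in ESC2 7.70, 7.62 and 7.69. R1 was again the highest and ESC2 the lowest, and the 4 iPS lines between them differed from their neighbours by no more than 0.17 log2, without passing the test. Steps between neighbours do not show that these 4 were level, and their means ran from 7.895 in IP14D-1 to 8.255 in IP14D-101.

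Heavy chain genes differ in sequence between mouse strains, and the name ending x_at marks probe sets in which some probes match other genes, so each H2 probe set is described on its own. Of the 13, 6 had a mean over all arrays at or above the median, and R1 was called higher than ESC2 in 5 of these, with log2 differences of 1.22 to 2.13. Throughout, called means a log2 difference of 1 or more with a limma adjusted p under 0.05, and 3.23% of all probe sets were called higher in this comparison. The exception, H2-D1 1452544_x_at, averaged 5.81 ± 0.05 log2 in R1 and 5.92 ± 0.17 in ESC2 (SD, n = 3 each). That probe set was lowest in IP20D-3, at 4.98 ± 0.15 log2, and highest in IP14D-1, at 6.04 ± 0.07. Of the 7 dimmer probe sets 1 was called, H2-D1 1451683_x_at, at 5.31 ± 0.08 log2 in R1 and 3.73 ± 0.10 in ESC2. H2-D1 1425614_x_at and 1427651_x_at were, like 1452544_x_at, highest in IP14D-1 and lowest in IP20D-3, with ranges of 0.86 and 0.84 log2. The probe sets of 1 gene therefore gave more than 1 order of the lines, and the part of allele sequence in this was not tested.

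**Figure D2:**
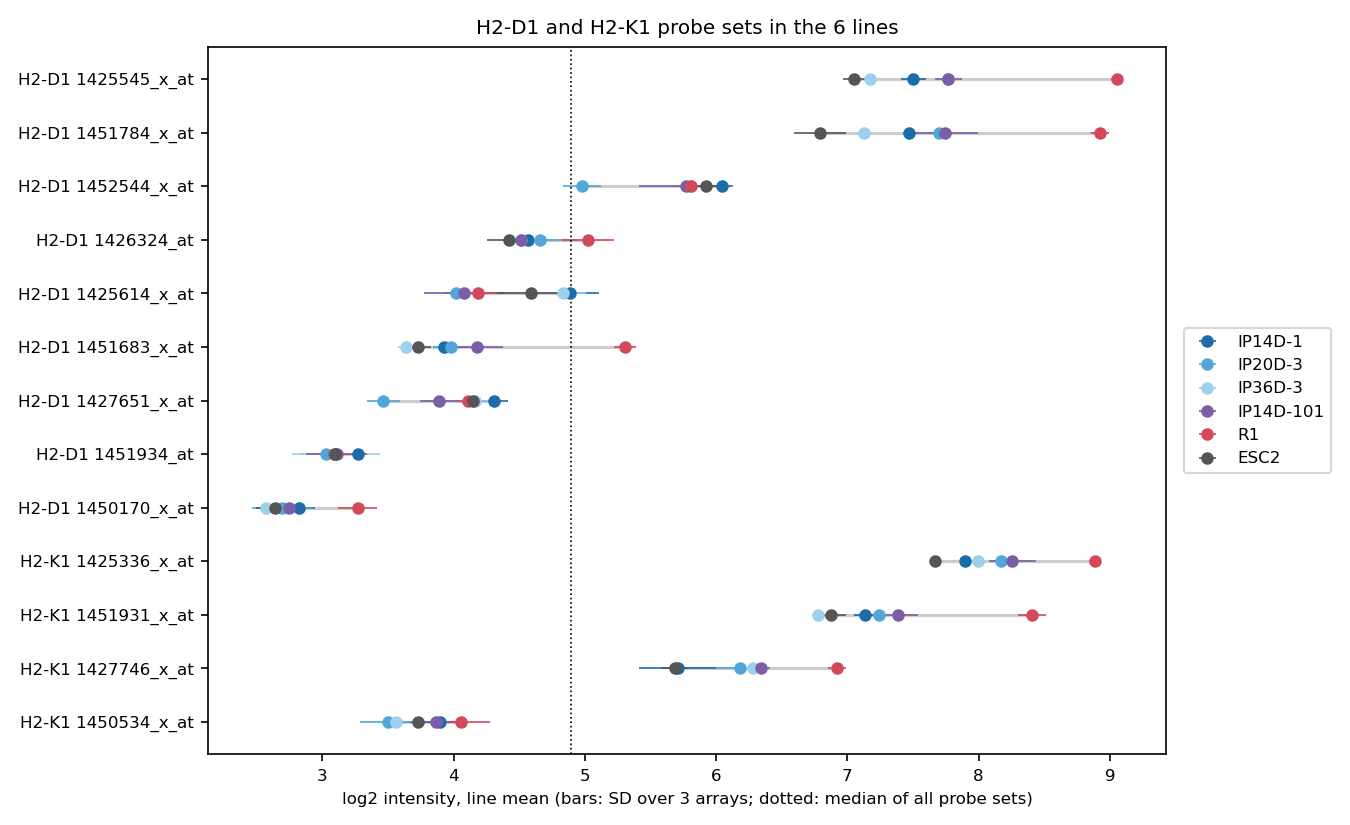
Line means of log2 intensity, with SD over 3 arrays, for the 9 H2-D1 and 4 H2-K1 probe sets in 6 lines; the dotted line is the median of all probe sets. R1 lies to the right in most of the bright probe sets, while 1452544_x_at has R1 at 5.81 and ESC2 at 5.92 log2.

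B2m, the invariant light chain of class I molecules, varied less. Its brighter probe set, 1452428_a_at, averaged 8.41 ± 0.09 log2 in IP14D-1, 8.46 ± 0.04 in IP20D-3, 8.72 ± 0.11 in IP36D-3, 8.18 ± 0.06 in IP14D-101, 8.999 ± 0.06 in R1 and 8.13 ± 0.07 in ESC2 (SD, n = 3 each). R1 was the highest, IP36D-3 came next, and IP14D-101 and ESC2 at the low end did not pass the test between them. The other B2m probe set, 1449289_a_at, also had its highest mean in R1, at 8.53 log2, but its lowest in IP20D-3, at 7.69. Neither range, 0.87 and 0.84 log2, reached 1.

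Tap1, a subunit of the peptide transporter, read 5.85, 6.01 and 5.96 log2 on the IP14D-1 arrays, 5.21, 5.23 and 5.59 on IP20D-3, 5.75, 5.62 and 5.69 on IP36D-3 and 5.88, 5.98 and 6.20 on IP14D-101 on its brightest probe set. The same probe set read 6.88, 6.72 and 6.89 log2 in R1 and 5.67, 5.66 and 5.65 in ESC2. R1 stood above the other lines and IP20D-3 below them, with the 4 lines between not passing the test from one neighbour to the next. These 4 were not level, since IP14D-101 was above ESC2 by 0.36 log2 (limma adjusted p = 0.00801). Psmb8, the catalytic immunoproteasome subunit also called LMP7, read 5.21, 5.08 and 5.32 log2 on the IP14D-1 arrays, 4.63, 4.46 and 4.39 on IP20D-3, 5.44, 5.42 and 5.49 on IP36D-3 and 4.92, 4.86 and 5.38 on IP14D-101. It read 6.71, 6.38 and 6.67 log2 in R1 and 5.32, 5.41 and 5.29 in ESC2. As for Tap1, all R1 arrays were the highest and all IP20D-3 arrays the lowest, and IP20D-3 was the only line with a mean under the array median. The second Tap1 probe set had its highest mean in R1 and its lowest in IP20D-3 as well, with a range of 0.52 log2. The remaining Tap1 and Psmb8 probe sets were under the array median in all 6 lines.

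Irf1, a transcription factor that interferon gamma induces and that binds class I promoters, had 1 probe set. It read 8.24, 7.98 and 8.45 log2 on the IP14D-1 arrays, 7.16, 7.19 and 6.92 on IP20D-3, 8.34, 8.28 and 8.24 on IP36D-3 and 8.37, 8.48 and 8.50 on IP14D-101, against 9.04, 8.98 and 8.95 in R1 and 8.26, 8.40 and 8.23 in ESC2. IP20D-3 lay more than 1 log2 under every other line, R1 was the highest, and IP14D-101, ESC2, IP36D-3 and IP14D-1 did not pass the test from one neighbour to the next. Ifitm3, a membrane protein that blocks virus entry and is also known as a germ cell and pluripotency-associated gene, varied least among the main probe sets. It averaged 11.29 ± 0.07 log2 in IP14D-1, 10.71 ± 0.08 in IP20D-3, 11.12 ± 0.02 in IP36D-3, 11.19 ± 0.06 in IP14D-101, 10.77 ± 0.14 in R1 and 11.26 ± 0.02 in ESC2. R1 and IP20D-3 were the lowest lines for this gene, under IP36D-3 by at least 0.34 log2, and the other 4 did not pass the test from one neighbour to the next.

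The comparison of the ES lines R1 and ESC2 covers strain and line at once, which cannot be told apart here. Of the 25 member probe sets, 9 (36%) were called higher in R1 than in ESC2 and 0 lower. Of the 25, 20 had an unadjusted p under 0.05, in either direction. The share of all probe sets at that unadjusted threshold is not given, here or in later comparisons. Such counts describe the members alone. Over all probe sets 9.01% were called, 3.23% higher and 5.78% lower. The median log2 difference was 0.63 over the member probe sets and 0.10 over all. The arrays of the 2 lines did not overlap for 19 member probe sets, against 58.6% of all probe sets. The called genes were Gbp2b, H2-D1, H2-K1, Tap1 and Psmb8.

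For H2-D1 1425545_x_at the log2 difference of R1 from ESC2 was 2.0 ± 0.08 (SE), and for H2-K1 1425336_x_at it was 1.22 ± 0.08 (limma adjusted p = 4.53e-12 and 3.08e-09). Tap1 differed by 1.17 ± 0.10 log2 and Psmb8 by 1.25 ± 0.12 (limma adjusted p = 6.27e-08 and 2.16e-07). With 16 added to each intensity before the log, which shrinks differences of dim probe sets, these became 0.97 and 0.99 and were no longer called. B2m and Irf1 passed the p threshold at log2 differences of 0.87 and 0.69, under the size threshold. Irgm1 had a log2 difference of -0.998, just inside the size threshold, and was called lower in R1 with arrays centred on their medians (-1.01), with array weights (-1.02), without R1 replicate 1 (-1.05) and without ESC2 replicate 1 (-1.09). Ifitm3 had a log2 difference of -0.49. In R1, 3 of the 8 pluripotency markers were called higher than in ESC2 and 0 lower, and their part in the differences was not tested. Of the 20 fibroblast markers 0 were called higher and 4 lower in R1, and the summed fibroblast intensities of R1 lay within the range of ESC2. Mean log2 over these markers was 5.365 in R1 and 5.725 in ESC2. The actin control ratio differed between these lines (1.13 ± 0.01 in R1 and 1.53 ± 0.04 in ESC2, SD, n = 3 each), and its part in the differences was not tested.

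R1 was also set against the B6 x D2 iPS lines. It was called higher for 7 member probe sets against IP14D-1, 9 against IP20D-3 and 8 against IP36D-3, and lower for 0 in each. Of all probe sets 4.29%, 11.7% and 6.07% were called in these comparisons, higher in 1.08%, 4.31% and 2.15% and lower in the rest. These comparisons share the R1 arrays with each other. The lowest log2 differences of H2-D1 1425545_x_at and of Psmb8 were 1.29 and 1.14, from IP20D-3 and from IP36D-3.

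**Figure D3:**
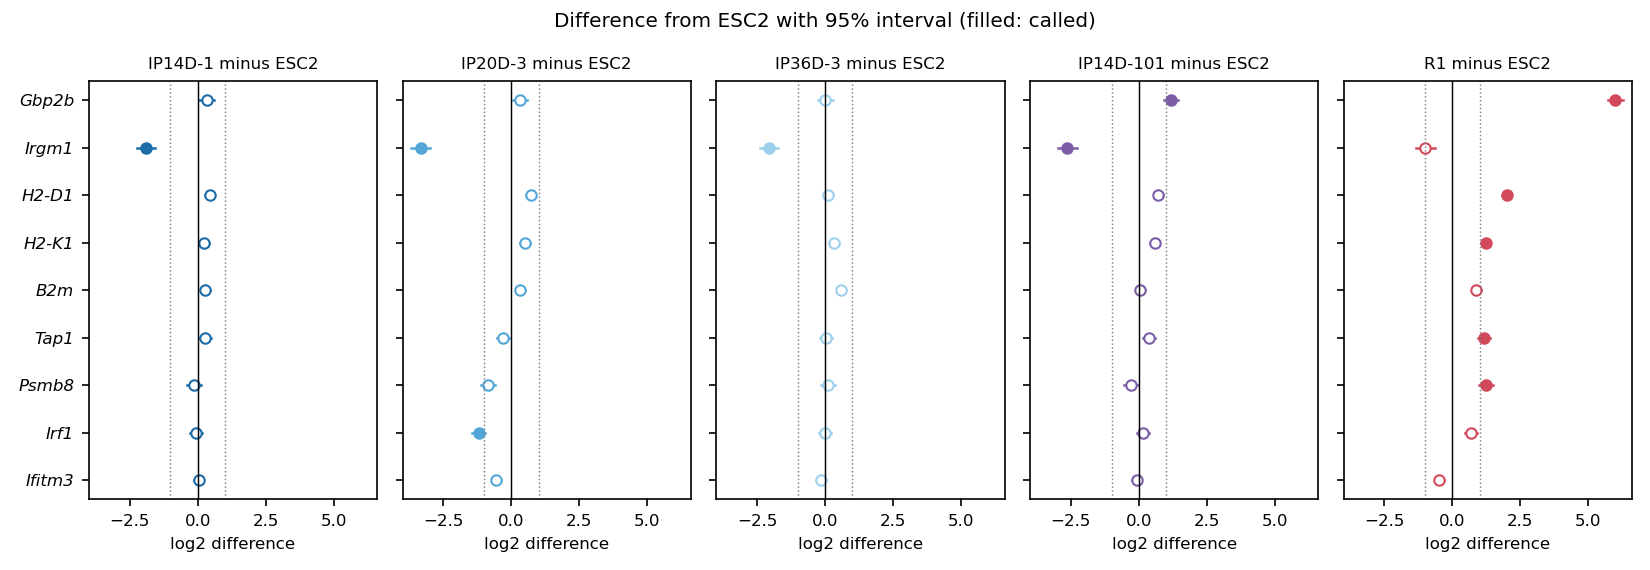
Log2 differences of the main probe set of each gene from ESC2 for the 4 iPS lines and R1, with 95% confidence intervals from limma. Filled points are called. Irgm1 lies below 0 in all 4 iPS lines against ESC2, from -3.33 to -1.90, and Gbp2b, H2-D1, H2-K1, Tap1 and Psmb8 lie above 0 in R1.

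Among the lines labelled B6 x D2, each iPS line can be set against an ES line of the same strain label. Of the 25 member probe sets 1 was called in IP14D-1 against ESC2, 2 in IP20D-3 and 1 in IP36D-3, all lower in the iPS line, with 3.26%, 7.67% and 3.58% of all probe sets called in either direction and 1.67%, 3.41% and 2.09% lower. These counts (4%, 8% and 4% of members) are near the background. Irgm1 accounts for 1 call in each line. Its log2 difference from ESC2 was -1.90 ± 0.16 (SE) for IP14D-1, -3.33 ± 0.16 for IP20D-3 and -2.05 ± 0.16 for IP36D-3 (limma adjusted p = 1.08e-07, 3.66e-11 and 5.37e-08). These contrasts share the ESC2 arrays. The other call was Irf1 in IP20D-3, at a log2 difference of -1.21 ± 0.11 (limma adjusted p = 4.19e-08).

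The class I genes showed no called difference between these iPS lines and ESC2. H2-D1 1425545_x_at had log2 differences of 0.45 for IP14D-1, 0.71 for IP20D-3 and 0.12 for IP36D-3, with 95% intervals of 0.28 to 0.62, 0.55 to 0.88 and -0.05 to 0.29. B2m had 0.28, 0.33 and 0.59 log2 in the same lines. Psmb8 had -0.13, -0.84 and 0.11, the lowest being IP20D-3. Of the 8 pluripotency markers, 1 was called higher and 0 lower in each of these iPS lines against ESC2. Fibroblast markers were called 2 higher and 0 lower in IP14D-1 against ESC2, 0 higher and 8 lower in IP20D-3, and 0 higher and 7 lower in IP36D-3. The actin control ratio was higher in ESC2 than in every iPS line. The part of the markers or of this ratio in the Irgm1 difference was not tested.

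The iPS line IP14D-101 shares only part of its strain label with R1, so strain and cell type cannot be told apart in this comparison. Against R1, 7 of the 25 member probe sets (28%) were called lower and 0 higher, with 1.86% of all probe sets called and 1.28% lower. The median log2 difference was -0.54 over members and 0.00 over all probe sets. The 7 were Gbp2b, Irgm1, 3 of H2-D1, 1 of H2-K1 and 1 of Psmb8. Gbp2b differed by -4.80 ± 0.13 log2 (SE), Irgm1 by -1.63 ± 0.16, H2-D1 1425545_x_at by -1.28 ± 0.08 and Psmb8 by -1.53 ± 0.12 (limma adjusted p = 3.73e-14, 9.84e-07, 2.26e-09 and 6.84e-08). B2m and Tap1 had log2 differences of -0.82 and -0.81, and Ifitm3 of 0.41. Of the fibroblast markers 0 were called higher and 1 lower in IP14D-101.

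Against ESC2, IP14D-101 had 2 member probe sets called (8%), near the 9.32% of all probe sets called. Gbp2b was higher by 1.19 ± 0.13 log2 (limma adjusted p = 6.45e-07) and Irgm1 was lower, at -2.63 ± 0.16 (limma adjusted p = 6.94e-10). The Gbp2b call was lost, at 0.51 log2, with 16 added to each intensity. H2-D1 1425545_x_at and H2-K1 1425336_x_at had log2 differences of 0.72 and 0.59, which passed the p threshold but not the size threshold (limma adjusted p = 8.27e-07 and 1.44e-05). Of the fibroblast markers 0 were called higher and 6 lower, and of the 8 pluripotency markers 3 were called higher and 0 lower.

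The iPS-minus-ES difference itself was then compared between the pair IP14D-101 and R1 and the B6 x D2 lines. It was the difference of IP14D-101 from R1 minus that of the mean of the 3 B6 x D2 iPS lines from ESC2. IP14D-101 and R1 do not carry the same strain label, so the first difference covers strain as well. Of the member probe sets 7 were called and all were negative, with 4.52% of all probe sets called. They were Gbp2b, 3 of H2-D1, 1 of H2-K1, 1 of B2m and 1 of Psmb8. Their values on the log2 scale were -5.02 for Gbp2b, -1.71, -1.82 and -1.24 for H2-D1, -1.20 for H2-K1, -1.22 for B2m and -1.24 for Psmb8. Irgm1, which was lower in the iPS line on both sides, had 0.80 ± 0.21 (SE), which passed the p threshold but not the size threshold (limma adjusted p = 0.00848). A single line stands for the cell type in 3 of the 4 cells of this contrast, so it speaks of these lines.

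**Figure D4:**
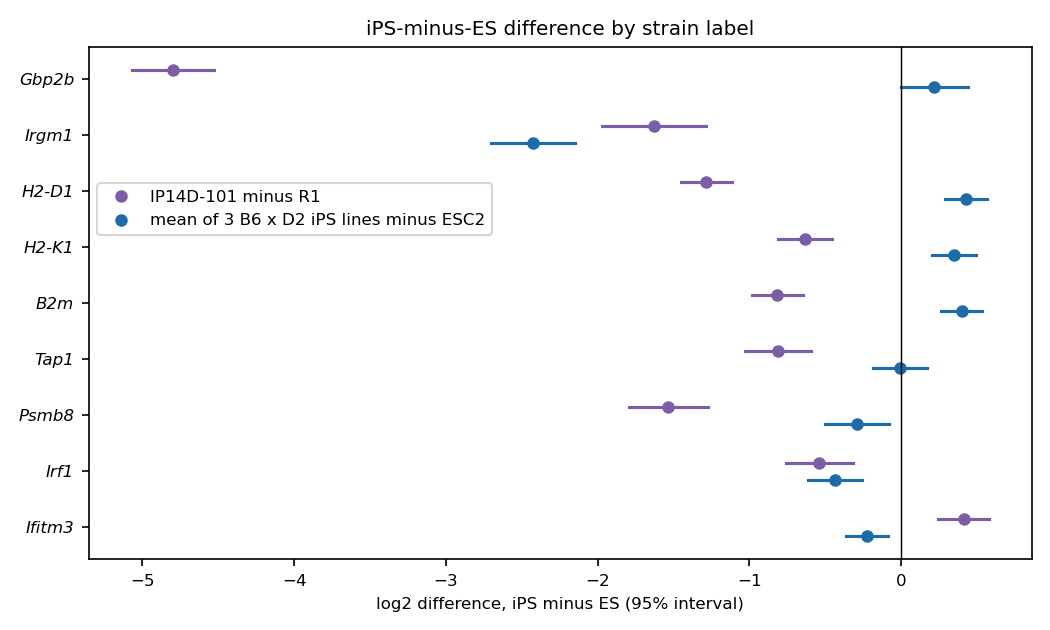
The iPS-minus-ES log2 difference of the main probe sets, IP14D-101 minus R1 beside the mean of IP14D-1, IP20D-3 and IP36D-3 minus ESC2, with 95% confidence intervals from limma. IP14D-101 and R1 do not carry the same strain label. Gbp2b stands at -4.80 for the first and 0.22 for the second, H2-D1 at -1.28 and 0.43, and Irgm1 at -1.63 and -2.43.

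Over line means, 4 iPS against 2 ES lines, limma called 0 of the 25 member probe sets and 0% of all probe sets. At an unadjusted p under 0.05, 1 member passed, Irgm1. It averaged 5.71 ± 0.65 log2 in iPS lines and 7.69 ± 0.71 in ES lines (SD, n = 4 and n = 2 lines; limma adjusted p = 1). Every iPS line was under both ES lines for this gene. The median log2 difference was -0.21 over members and -0.01 over all probe sets.

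Set by strain label, R1 and IP14D-101 against the 4 B6 x D2 lines, limma again called 0 member probe sets. Of all probe sets 0.091% were called. At an unadjusted p under 0.05, 9 member probe sets passed, with no share of all probe sets given. Those 9 were higher in R1 and IP14D-101 and included 3 H2-D1, 3 H2-K1 and 1 Tap1 probe set. Gbp2b averaged 6.58 ± 3.39 log2 in R1 and IP14D-101 and 3.16 ± 0.19 in the B6 x D2 lines (SD, n = 2 and n = 4 lines; limma adjusted p = 0.172). H2-D1 1425545_x_at averaged 8.41 ± 0.91 log2 in R1 and IP14D-101 and 7.37 ± 0.32 in the B6 x D2 lines (SD, n = 2 and n = 4 lines; limma adjusted p = 0.186). The spread of Gbp2b in the first group is that between R1 and IP14D-101.

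Among the B6 x D2 iPS lines, the called differences all involved IP20D-3. Against IP14D-1, 3 member probe sets were called and all were lower, with 4.43% of all probe sets called, 1.79% lower. They were Irgm1 at -1.44 ± 0.16 log2, H2-D1 1452544_x_at at -1.07 ± 0.14 and Irf1 at -1.13 ± 0.11 (SE; limma adjusted p = 1.57e-06, 8.13e-06 and 1.65e-07). Against IP36D-3, 2 were called, with 3.42% of all probe sets called and 1.38% lower, Irgm1 at -1.28 ± 0.16 log2 and Irf1 at -1.19 ± 0.11 (limma adjusted p = 8.11e-06 and 1.34e-07). IP20D-3 was not low throughout, since H2-D1 1425545_x_at was higher than in IP36D-3 by 0.59 ± 0.08 log2, under the size threshold (limma adjusted p = 1.6e-05). Fibroblast markers were called 0 higher and 11 lower in IP20D-3 against IP14D-1, and 0 higher and 1 lower against IP36D-3, and their part in these differences was not tested.

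Between IP14D-1 and IP36D-3 limma called 0 member probe sets, with 3.14% of all probe sets called. In that pair 12 member probe sets had an unadjusted p under 0.05, with no share of all probe sets given. Of the fibroblast markers 10 were called higher in IP14D-1. IP14D-101 had 0 member probe sets called against IP14D-1, with 3.98% of all probe sets called. There 13 member probe sets had an unadjusted p under 0.05, again with no share of all given. Against IP20D-3 the line IP14D-101 had 1 called, Irf1, and against IP36D-3 it had 1, Gbp2b, both higher in IP14D-101. Of all probe sets 9.41% and 4.13% were called in these.

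A wider list of 72 genes of interferon signalling, interferon targets and antigen processing was chosen, also with earlier results of these data known. It was read at the brightest probe set per gene, and 61 genes were measured. Of these, 21 (34.4%) varied among the lines, against 24.2% of all probe sets, which unlike the list include the dimmer probe sets of a gene. The genes of the list not matched to a single-symbol probe set were not analysed here. In R1 against ESC2, 8 of the 61 (13.1%) were called higher and 1 (1.64%) lower, with 52 not called, against 3.23% higher and 5.78% lower over all probe sets. The median log2 difference was 0.25 over the list and 0.10 over all probe sets.

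Gbp2 and Gbp3, guanylate-binding protein genes that lie on either side of Gbp2b in RefSeq, were among the 8. Here and in later comparisons Gbp2 was read by a probe set with a name ending x_at, in which some probes match other genes. The part of Gbp2b or of other genes in the Gbp2 signal was not tested. Gbp2 averaged 8.69 log2 in R1 and 6.85 in ESC2, and Gbp3 averaged 5.36 in R1 and 3.67 in ESC2, log2 differences of 1.84 and 1.69. Tapbp, which encodes the peptide-loading chaperone tapasin, averaged 9.10 log2 in R1 and 7.84 in ESC2. Psmb9, the immunoproteasome partner of Psmb8, averaged 6.59 in R1 and 5.41 in ESC2. The signalling factor Stat2 averaged 5.84 in R1 and 4.39 in ESC2. The gene called lower was Oasl2, an oligoadenylate synthetase-like gene, at 4.31 log2 in R1 and 5.76 in ESC2.

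In the iPS lines against ESC2, the list had 0 genes called higher and 1 lower for IP14D-1, 3 higher and 3 lower for IP20D-3, 2 higher and 1 lower for IP36D-3, and 2 higher and 3 lower for IP14D-101. As shares called these are 1.64% for IP14D-1, 9.84% for IP20D-3, 4.92% for IP36D-3 and 8.2% for IP14D-101, near or under the 3.26%, 7.67%, 3.58% and 9.32% of all probe sets. The genes called are given as values. Gbp2 was lower in 3 of the 4, with log2 differences of -2.92 in IP20D-3, -1.24 in IP36D-3 and -1.53 in IP14D-101. Oasl2 was lower in IP14D-1 (-1.35), IP20D-3 (-2.47) and IP14D-101 (-1.22). Erap1, the aminopeptidase that trims class I peptides, was lower in IP20D-3 (-1.59) and IP14D-101 (-1.44). Stat2 was higher in IP20D-3 (1.38), IP36D-3 (1.57) and IP14D-101 (1.90). Rfxank, a subunit of the same promoter-binding factor as Rfxap, and Ifitm2, a relative of Ifitm3, were higher in IP20D-3 (1.38 and 1.24). Psmb9 was higher in IP36D-3 and the chaperone gene Calr in IP14D-101, both by 1.002. These 4 contrasts share the ESC2 arrays, and the part of the fibroblast signal given for each line above was not tested.

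In IP14D-101 against R1, 1 gene of the list was called higher and 4 (6.56%) lower, against 1.86% of all probe sets called and 1.28% lower. Gbp2 averaged 5.32 log2 in IP14D-101 and 8.69 in R1, Gbp3 3.51 in IP14D-101 and 5.36 in R1, Tapbp 7.82 in IP14D-101 and 9.10 in R1, and Erap1 4.66 in IP14D-101 and 6.19 in R1. Socs3, a feedback inhibitor of cytokine signalling, was the gene called higher, at 10.62 log2 in IP14D-101 and 9.50 in R1.

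Between iPS lines, IP20D-3 against IP36D-3 had 1 gene of the list called higher and 10 (16.4%) lower, against 3.42% of all probe sets called and 1.38% lower. Oasl2 (-1.95), Gbp2 (-1.67), Igtp (-1.42), Rfxap (-1.33), Ifit2 (-1.28) and Erap1 (-1.25) had the lowest log2 differences. Igtp is an immunity-related GTPase like Irgm1, Ifit2 an antiviral RNA-binding protein, and Rfxap a subunit of a factor that binds class II and class I promoters. Oas1a, named after its value was seen because it was the gene called higher, differed by 1.05. In IP20D-3 against IP14D-1, 0 were called higher and 3 (4.92%) lower, against 4.43% of all probe sets called and 1.79% lower. These were Gbp2 (-2.48), Calr (-1.13) and Oasl2 (-1.12). In IP14D-1 against IP36D-3, 0 were called higher and 5 (8.2%) lower, against 3.14% of all probe sets called. These were Igtp (-1.27), Psmb10 (-1.21), Bst2 (-1.15), Rfxap (-1.08) and Rfx5 (-1.07).

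**Figure D5:**
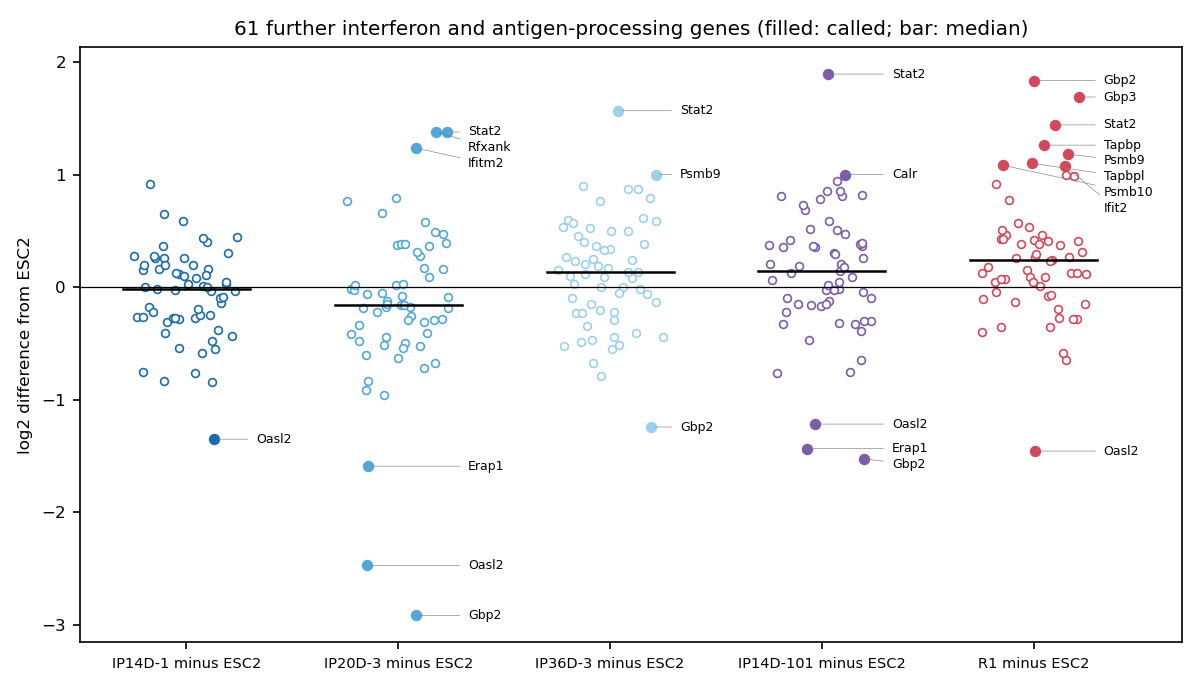
Log2 differences from ESC2 of 61 further genes of interferon signalling and antigen processing, for 4 iPS lines and R1. Each point is a gene at its brightest probe set, filled points are called and named, and bars are medians, 0.25 in R1 and -0.16 in IP20D-3; Gbp2 stands at 1.84 in R1 and -2.92 in IP20D-3.

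Across the 6 line means the members were not all alike. Pearson's r was 0.97 between H2-D1 and H2-K1, 0.95 between Gbp2b and H2-D1 and 0.92 between Gbp2b and Tap1, all in points where R1 stands apart. It was -0.02 between Irgm1 and H2-D1 and -0.67 between Ifitm3 and H2-D1. The points are 6 line means of the same 18 arrays, and r is given as a description.

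The genes whose pattern was most like a member's were sought among 3936 genes with a range of line means of at least 1 log2 and a highest line mean of at least 6. For Gbp2b they were Kbtbd11 (r = 0.989 over 6 line means), Rgmb and Itga8. Itga8 averaged 7.33 log2 in R1 and 3.37 to 3.50 in the other lines. For Tap1 they were Tent5b (r = 0.998), Sfn and Igf2, and for Irf1 they were Trib1 (r = 0.997), Mmp14 and Trim21. For Irgm1, whose highest line was ESC2, they were Nsmaf (r = 0.988), Acvr1 and Fam102b. For H2-D1 they were Adgrg1 (r = 0.977), Stard10 and Gss, for H2-K1 Nudcd3 (r = 0.976), Ets2 and Stard10, and for Psmb8 Pcdh1 (r = 0.984), Car2 and Dok1. These are the highest r of 3936 over 6 points, and they describe these lines only.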

How the data were processed

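Total RNA of 6 cell lines was labelled with biotin and read on Affymetrix arrays. Per the submitters' processing notes and the design text, the authors deposited probe set intensities from RMA, of a version not given there. RMA corrects background, normalizes quantiles between arrays and summarises probes, so a shift of most genes would be removed. The intensity values were linear and were taken to log2. Of 45101 probe sets 64 controls were left out. Symbols came from the platform annotation, and all 9 members matched RefSeq (GRCm38.p6) by gene identifier. The fibroblasts named in the design text were not analysed here.

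Groups were taken from the labels. limma 3.58.1 (R 4.3.3) fitted 1 mean per line over 18 arrays (12 residual degrees of freedom) with Benjamini-Hochberg adjustment over 45037 probe sets; iPS against ES and the strain labels were fitted on 6 line means. The main probe set of a gene has the highest mean over the arrays, and all 15 pairs of lines were fitted to order the levels. Named genes were the 9 members with every probe set, up to 6 called genes of the wider list per contrast by size, and the 3 genes of highest r per member with a range of at least 1. Alternatives were array centring, quantile normalization, a pseudocount, array weights, an intensity trend, leaving out dim probe sets, arrays or lines, and a replicate block. The members and lists were chosen with earlier results of these data known. The steps were tested on simulated data. Python 3.11.15, pandas 2.3.3 and matplotlib 3.10.9 made the tables and plots.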

Additional observations from a re-analysis of the deposited data

Results flagged for a closer look

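Irf1 in IP20D-3 stood apart from the other lines of its groups. Its line mean was 7.09 log2, and the next value among the 4 iPS lines, and among the 4 B6 x D2 lines, was 8.22 log2. The gap took up 0.834 of the range of the iPS lines and 0.938 of the range of the B6 x D2 lines. Chance gives about 1 such value in 20 groups, and 2 were found in 50 sets of line means examined. Both are this same line mean, in groups that share lines, so their count cannot be set against that rate. Over the 3 IP20D-3 arrays the levels were 7.16, 7.19 and 6.92 log2.

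The iPS-minus-ES difference of IP14D-101 from R1 differed from that of the B6 x D2 lines for 7 probe sets, by limma's test of that contrast. Gbp2b 1420549_at had the lowest value, -5.02 log2 (limma adjusted p = 1.73e-12). H2-D1 had -1.71 for 1425545_x_at, -1.82 for 1451784_x_at and -1.24 for 1451683_x_at (limma adjusted p = 3.62e-09, 1.05e-07 and 1.45e-06). H2-K1 1451931_x_at had -1.20, B2m 1452428_a_at -1.22 and Psmb8 1422962_a_at -1.24 (limma adjusted p = 8.43e-07, 1.93e-07 and 1.7e-05). In each of these R1 had the highest line mean, and R1 is the single ES line set against IP14D-101 in the contrast. Strain and line cannot be told apart in it.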

How the results depend on the processing

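Over 1134 recomputed comparisons of single genes under the alternatives, 1108 kept their direction and side of the thresholds. They are 81 distinct gene comparisons recomputed many times from the same arrays, so the count is not one of independent checks. The 4 calls lost all came with 16 added to the intensity: Tap1 and Psmb8 in R1 against ESC2, Gbp2b in IP14D-101 against ESC2 and Irgm1 in IP20D-3 against IP36D-3. That setting also gave 1 call in place of 2 in each of the last 2 contrasts. A call was gained in 5, of which 4 were Irgm1 in R1 against ESC2 and 1 was Psmb8 in IP20D-3 against IP36D-3. With 1 probe set per gene, where 9 member probe sets were tested in place of 25, 7 varied among lines in place of 12, and 5 were called in R1 against ESC2, 4 in IP14D-101 against R1 and 4 for the difference between strain labels, in place of 9, 7 and 7. Fitting arrays with the line as a random block gave 1 call for iPS against ES and 3 for the strain labels, in place of 0, and the cause was not tested. Leaving out a line gave 4 (R1 left out) to 12 varying probe sets, a count added after seeing the data, and 0 to 1 calls for the strain labels (1 without IP14D-101). Leaving out 1 array gave 9 to 10 calls in R1 against ESC2, 6 to 7 in IP14D-101 against R1 and 7 to 9 for the difference between strain labels.

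The 17 reversed values were all near 0 and not called. Gbp2b in IP20D-3 against IP14D-1 (-0.022) turned to 0.008 with centred arrays, 0.052 with repeated quantile normalization and -0.103 to 0.086 with 1 array left out. The quantile step also turned B2m in IP20D-3 against IP14D-1 from 0.054 to -0.063. Before that step IP36D-3 was above IP14D-1 by 0.102 for H2-K1 and by 0.058 for Irf1. After it, the differences of IP14D-1 from IP36D-3 were 0.012 for H2-K1 and 0.053 for Irf1. With 1 array left out, Gbp2b took -0.086 to 0.135, Irf1 -0.05 to 0.035 and Tap1 -0.006 to 0.059 in IP36D-3 against ESC2. In IP14D-1 against ESC2, Irf1 took -0.189 to 0.046 and Ifitm3 -0.004 to 0.069, and in IP14D-1 against IP36D-3 Irf1 took -0.172 to 0.063.

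Replicate numbers gave weak and uneven structure over the 6 lines, with correlations of deviations from -0.287 to 0.295 and a mean of 0.041. Of 45 same-number pairs of arrays 12 had a correlation of deviations over 0.1, and the number matched best in 44 of 90 cases, against 30 if numbers carried nothing. In 1 of 15 pairs of lines, IP14D-1 and IP36D-3, all 3 correlations were over 0.1 (0.106 to 0.176), and 0 members were called there with the block as without it. With the replicate block, 12 member probe sets varied and 9 were called in R1 against ESC2, and no other count or call changed. Precision is limited by 3 arrays per line and, for dim probe sets such as Gbp2b outside R1, by background.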
